A study of Drosophila melanogaster with 51 samples.

Results

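The genes described here encode subunits of the COP9 signalosome. They were taken from the deposited array table by their symbols, as every gene named CSN with a digit and alien, the gene of subunit 2. This gave 5 genes, CSN1b, alien, CSN4, CSN5 and CSN7, of 6187 features with values in the table (4698 named genes and 1489 unnamed entries). The 5 genes had 6 entries, since alien had 2, and each entry had a value on all 51 arrays. The RefSeq gene table lists 9 subunit genes, and CSN1a, CSN3, CSN6 and CSN8 were not analysed here.

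The study set mutant Drosophila melanogaster larvae against wild-type larvae (w118) of the same age. The mutants were csn4null, a null allele of CSN4, csn5null, a null allele of CSN5, and csn51 and csn53, which by their names are alleles of CSN5 and whose lesions no source used here gives. Each was sampled at 60, 72 and 96 h after egg deposition, so that there were 12 groups. At these ages csn4null had 3, 4 and 4 arrays, csn5null 5, 4 and 4, csn51 4, 4 and 5, and csn53 5, 4 and 5. On each array, mutant RNA carried one dye and w118 RNA the other, and dyes were reversed within every group. The labels name no tissue, and if whole larvae were used, RNA of many tissues was mixed. Fewer cells of a type and less RNA per cell cannot be told apart. Tissue markers were not checked here.

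The COP9 signalosome takes Nedd8, a small protein related to ubiquitin, off cullins, which are the scaffolds of the cullin-RING ubiquitin ligases. CSN5 carries the metalloprotease site that does this, and in the intact complex it works together with the other subunits. Several subunits are related to subunits of the lid of the 26S proteasome and of the translation factor eIF3. Among them CSN1 resembles Rpn7, alien resembles Rpn6 and CSN4 resembles Rpn5.

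All values below are log2 ratios of mutant over w118, where 1 unit is a 2-fold difference. The base of the logarithm was taken as 2, which no source used here states. The direction is the likely one. All signs were turned because CSN4 and CSN5 were above 0 as deposited in the larvae that carry their null alleles, so the direction of these genes in their own null is no result. On the 23 arrays with mutant RNA in Cy3, 98.8% to 99.5% of the values were written with more than 6 digits, and on the 28 with it in Cy5 0%. Within groups, 47 of the 53 array pairs of opposite dye had a correlation over 0.4 as deposited. The number of arrays limits the precision, and the spread behind the p-values is that between arrays, which the labels describe as biological repeats.

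Of all arrays, 3 stood apart from their groups, and all 3 were csn5null. Their median correlation with the rest of their group was -0.012 for 60 h replicate 5, -0.0052 for 72 h replicate 3 and 0.0721 for 96 h replicate 3, against 0.523 or more for every other array. The main csn5null results are given with and without these 3 arrays.

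CSN4, the mutated gene of csn4null, was low there on every array and at every age. At 60 h its log2 ratios were -2.04, -2.62 and -2.49 in csn4null. At 72 h they were -2.18, -2.32, -3.05 and -2.32, and at 96 h -3.22, -1.72, -2.53 and -1.30. The highest of these 11 values lay far below the lowest CSN4 value of any other mutant, -0.25 in csn53 at 60 h. Between 60 and 96 h the spread among arrays widened, while the fitted difference of 96 h minus 60 h was 0.20 ± 0.22 (SE, adjusted p = 0.636). Without 96 h replicate 1, the lowest array, that difference was 0.58 and passed the test (adjusted p = 0.0374). The difference of csn4null minus csn5null in CSN4 was -2.56 ± 0.21 at 60 h, -2.56 ± 0.21 at 72 h and -2.28 ± 0.21 at 96 h (limma adjusted p = 1.0e-11, 3.2e-12 and 4.8e-11). It was, without the 3 csn5null arrays that stood apart, -2.57, -2.53 and -2.33.

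CSN5, the catalytic subunit gene, was lowest in csn5null at 60 h. Its arrays there spread apart at 96 h and, through replicate 3 alone, at 72 h. Its log2 ratios in csn5null at 60 h were -4.15, -4.36, -4.05, -4.74 and -4.78. At 72 h they were -3.98, -4.04, -0.32 and -3.44, and at 96 h -3.84, -3.11, -0.01 and -1.16. The 60 h arrays lay within 1 unit of each other, and the replicates 3 of 72 and 96 h, which stood apart over all features, were near 0. At 96 h the 2 lower arrays carried the mutant RNA in Cy3 and the 2 higher in Cy5. The dye coefficient of CSN5 over all arrays was 0.38 ± 0.19 (Cy5 minus Cy3, adjusted p = 0.265), and the part of the dye in this spread was not tested further.

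The fitted CSN5 value of csn5null was higher at 96 h than at 60 h by 2.42 ± 0.44 (adjusted p = 0.000428). Without the 2 arrays near 0 this difference was 1.75 ± 0.26 (limma adjusted p = 6.3e-06), with fitted values of -3.80 ± 0.20 at 72 h and -2.68 ± 0.20 at 96 h. These SEs and this p-value rest on a spread shared by all groups, not on that of csn5null at 96 h. The 96 h arrays left in that fit lay far apart, at -3.84, -3.11 and -1.16, the last with mutant RNA in Cy5. With all arrays of the 60 and 96 h groups fitted alone, with no dye term, the difference was 2.39 ± 0.66. It did not pass the test there (adjusted p = 0.0752). Over the alternative fits, single arrays left out aside, the difference ran from 1.65 to 4.57. The fitted 60 h value ran from -6.64 to -4.33 in them.

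**Figure D1:**
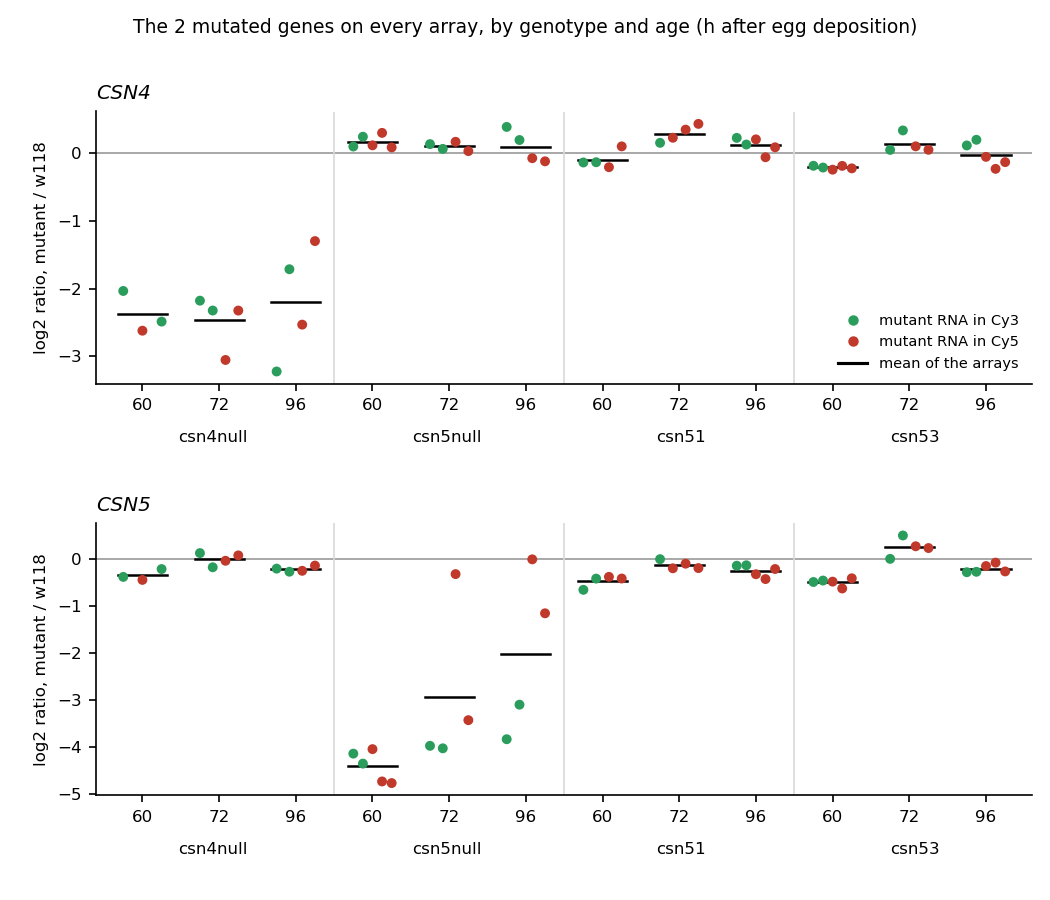
Log2 ratios (mutant / w118) of CSN4 and CSN5 on each of the 51 arrays, by genotype and age in h after egg deposition, with mutant RNA in Cy3 (green) or Cy5 (red) and the mean of a group as a bar. CSN4 lies at -1.30 or below in csn4null and at -0.25 or above elsewhere, and CSN5 in csn5null runs between -4.78 and -4.05 at 60 h and reaches -0.01 at 96 h.

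The gene beside CSN4 was low in csn4null as well. In the RefSeq gene table, CG8726 is the gene immediately before CSN4 and ACC, which encodes acetyl-CoA carboxylase, the gene immediately after it. On the csn4null arrays CG8726 had log2 ratios of -1.44, -1.79 and -2.82 at 60 h. They were -1.83, -1.50, -2.01 and -1.67 at 72 h and -1.74, -1.24, -2.11 and -1.57 at 96 h. All 11 lay below the lowest CG8726 value of the other mutants, -0.59 in csn51 at 96 h.

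The fitted CG8726 values of csn4null were -2.04 ± 0.13, -1.75 ± 0.11 and -1.67 ± 0.11 at the 3 ages (limma adjusted p = 4.4e-16, 2.2e-16 and 1.0e-15). In csn5null CG8726 lay between -0.05 and 0.06 and was not called. It fell by 0.48 ± 0.10 in csn51 and by 0.41 ± 0.10 in csn53 at 96 h (adjusted p = 6.3e-05 and 0.000574). ACC was not called in csn4null, at -0.04 ± 0.16, -0.08 ± 0.13 and 0.34 ± 0.13 (adjusted p = 0.902, 0.771 and 0.0502). Whether the lesion of csn4null reaches past CSN4 was not tested, and no source used here states it.

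**Figure D2:**
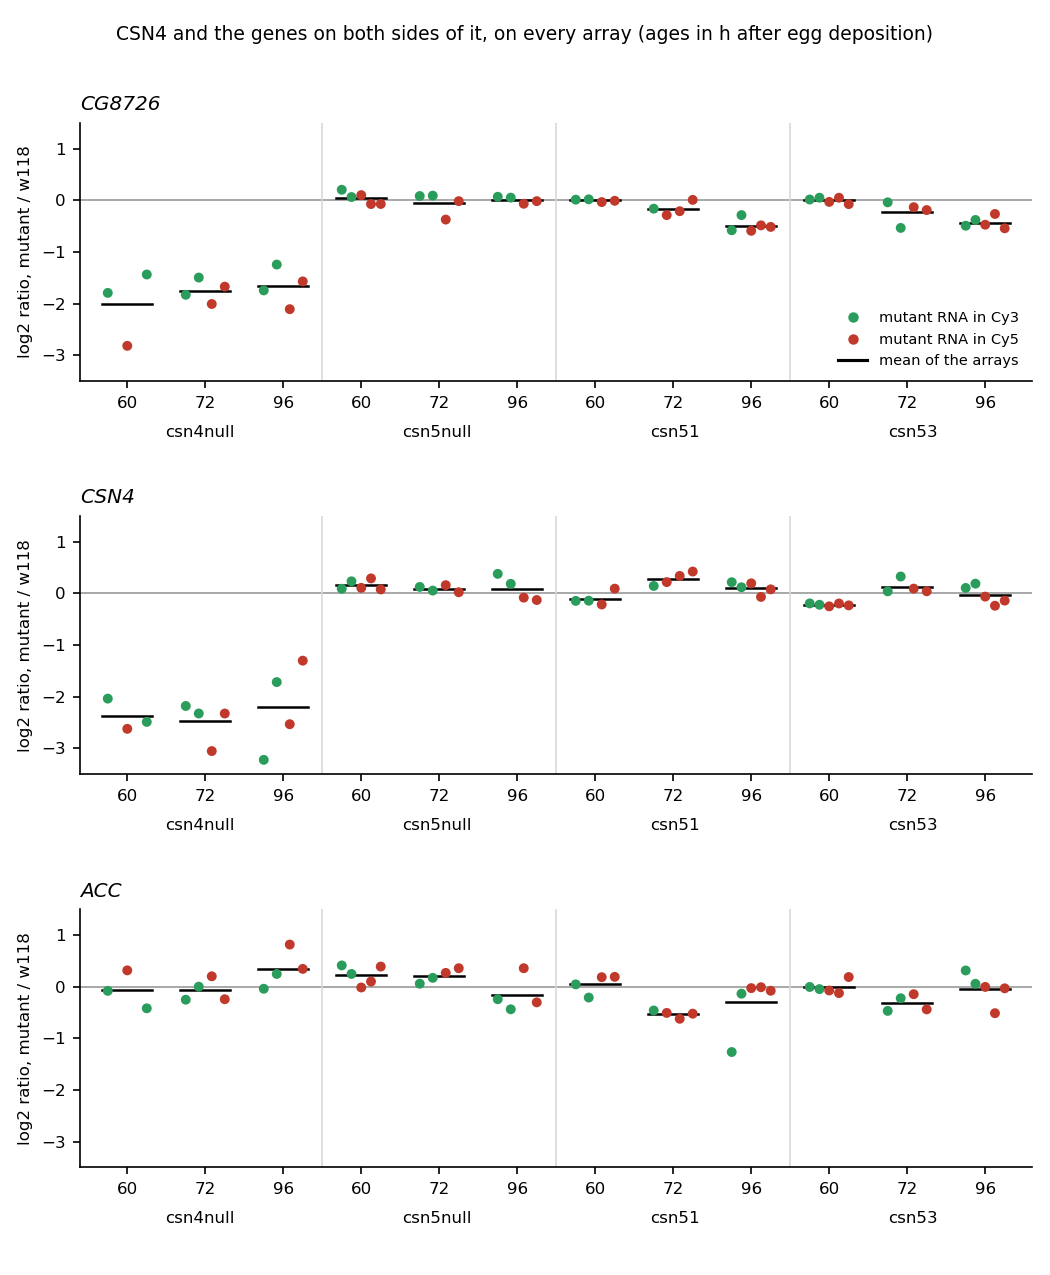
Log2 ratios (mutant / w118) of CSN4 and of the genes listed immediately before (CG8726) and after it (ACC), on every array by genotype and age in h. In csn4null CG8726 and CSN4 lie at -1.24 or below, while the 11 ACC values spread around 0, between -0.42 and 0.81.

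The measured neighbours of the other members were farther away, apart from Prp6, the gene immediately after CSN1b. Around CSN5, Pak3 (3 genes between) and Gyc89Db (2 genes between) were not lower in csn5null at any age. Pak3 had fitted values of 0.17, 0.03 and 0.34 at the 3 ages, and the last passed the test (adjusted p = 0.00579). Gyc89Db had 0.15, 0.29 and 0.08 and was not called. Prp6, a splicing factor gene, was called in csn4null, csn51 and csn53, each time higher: at 72 and 96 h in csn4null (0.33 and 0.65) and csn51 (0.47 and 0.63), and at 72 h in csn53 (0.41). rost, a gene of muscle cell fusion with 1 gene between it and alien, was higher in csn51 (1.29, 1.21 and 1.68) and csn53 (1.23, 1.04 and 1.50) at 60, 72 and 96 h (adjusted p at most 0.00188). It was also called higher in csn4null at 60 h (0.88, adjusted p = 0.0351) and csn5null at 96 h (0.77, adjusted p = 0.0313). Cyp4ad1, a cytochrome P450 gene with 5 genes between it and CSN7, was lower in csn4null (-1.21, -1.41 and -2.90), csn51 (-1.78, -2.31 and -2.57) and csn53 (-1.39, -0.96 and -1.50) at these ages and in csn5null at 96 h (-1.43), while CSN7 was called in none of these groups.

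Outside the larvae that carry their own null allele, the fitted values of the subunit genes lay between -0.61 and 0.30. Of 54 such values, 2 were higher and 7 lower past the test at an adjusted p of 0.05. In csn51 and csn53 they include CSN5, by name the mutated gene there, which with all arrays was not called in either. In csn4null 0, 1 and 0 of the 4 other subunit genes passed it at 60, 72 and 96 h, where 17.8%, 25% and 31.4% of all features did. In csn5null 0, 1 and 0 of 4 passed, against 7.94%, 17.8% and 17.3% of all features. In csn51 2, 0 and 1 of 5 passed, against 46.9%, 34.5% and 55.1%, and in csn53 2, 1 and 1 of 5, against 50.2%, 30% and 40.5%. Where 0 passed by limma, an unadjusted p of 0.05 was reached by 1 gene in csn4null at 60 h, 2 in csn51 at 72 h and 0 in the other groups. With all arrays and CSN5 counted, the shares are no higher than over all features in any csn51 or csn53 group. Leaving CSN5 out keeps the counts that passed. The share then lies above that of all features in csn51 at 60 h only. Without the 3 csn5null arrays that stood apart, 3 of 5 passed at 60 h in csn51 and in csn53, with CSN5 as the third. Of all features 51.6% and 54.6% then passed. In csn4null at 60 h 1 of 4 then passed, against 25.9%. In csn5null the counts without these arrays were again 0, 1 and 0 of 4, against 17.2%, 20.8% and 27.3%. The counts are too small to set a group apart. The median of the subunits in a group, with CSN5 counted in csn51 and csn53, lay between -0.51 (csn53, 60 h) and 0.13 (csn53, 72 h). The median of all features lay between -0.02 and 0.01 in every group.

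alien encodes subunit 2, a scaffold subunit of the complex that was also described as a corepressor of nuclear hormone receptors. Its ratio was clearest at 60 h, where it fell in csn51 and csn53. Its values at 60 h, as the mean of both entries, were -0.69, -0.45, -0.63 and -0.69 in csn51. They were -0.60, -0.38, -0.33, -0.76 and -0.51 in csn53. All 9 lay below each of the 60 h arrays of csn4null, at -0.19, -0.24 and -0.13, and of csn5null, at -0.17, -0.16, 0.01, -0.17 and -0.08.

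The fitted values of alien at 60 h were -0.61 ± 0.09 in csn51 and -0.51 ± 0.08 in csn53 (limma adjusted p = 7.2e-07 and 1.7e-06), and both calls were kept in every alternative fit and without any single array. In csn51, 8.16% of all features had a lower fitted value than alien. alien was not called in csn4null (-0.19 ± 0.11, adjusted p = 0.212) or csn5null (-0.11 ± 0.08, adjusted p = 0.583) at that age.

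At the later ages alien was lower in csn5null at 72 h, where its values of -0.34, -0.23, -0.41 and -0.50 were all below 0. The fitted value was -0.37 ± 0.09 (adjusted p = 0.00397), and without replicate 3 and 96 h replicate 3, which stood apart, it was -0.36 ± 0.11 (adjusted p = 0.0148). Fitted on its own arrays alone, alien was not called there (adjusted p = 0.17). In csn53 at 72 h alien had -0.03, 0.52, 0.28 and 0.21, so 3 of 4 arrays were above 0 and 1 was at it. That group's fitted value of 0.25 ± 0.09 passed the test (adjusted p = 0.0376), but not without replicate 2, 3 or 4 (0.15, 0.23 and 0.25, adjusted p = 0.281, 0.114 and 0.082).

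At 96 h alien in csn53 had -0.47, -0.42, -0.10, 0.24 and -0.28, with 1 array above 0. Its fitted -0.20 ± 0.08 (adjusted p = 0.0439) did not pass without replicate 1, 2 or 5 (-0.13, -0.14 and -0.19, adjusted p = 0.292, 0.241 and 0.12). In csn51 at 96 h replicate 1 was at 0.35 and the other 4 arrays between -0.36 and -0.25. With all 5 arrays alien was not called in that group (-0.16 ± 0.08, adjusted p = 0.102), and without replicate 1 it was lower (-0.29 ± 0.08, adjusted p = 0.00256).

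Both alien entries, clones LD10463 and SD08021, showed the fall at 60 h. Fitted on its own, LD10463 gave -0.65 in csn51 and -0.51 in csn53 (adjusted p = 0.000106 and 0.000457), and SD08021 gave -0.58 and -0.51 (adjusted p = 5.6e-08 and 4.3e-08). Over the 51 arrays the 2 entries correlated at r = 0.60, had the same sign on 44 and differed by a median of 0.16. The largest gap, 1.13, was on csn51 96 h replicate 1, where LD10463 was at 0.92 and SD08021 at -0.21. Only LD10463 was thus high on that array. SD08021 alone was called lower in csn51 at 96 h (-0.31, adjusted p = 0.000128), csn4null at 60 h (-0.25, adjusted p = 0.0367) and csn4null at 96 h (-0.29, adjusted p = 0.00257), where LD10463 was not (-0.0021, -0.13 and -0.08).

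**Figure D3:**
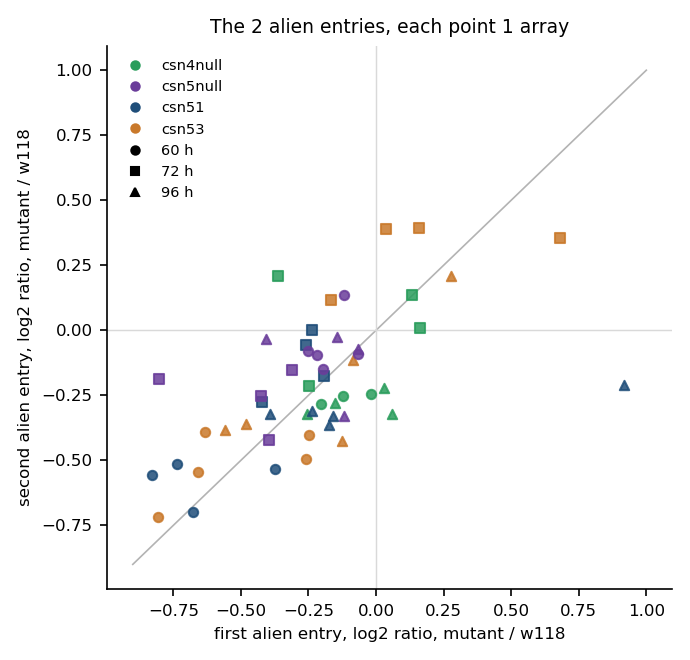
Log2 ratio (mutant / w118) of alien clone LD10463 (x axis) against that of clone SD08021 (y axis), each point 1 array, with genotype as colour, age as shape and a line where both are equal. The csn51 and csn53 arrays of 60 h lie at -0.25 or below in both entries, and 1 csn51 array of 96 h lies far to the right at 0.92.

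CSN1b encodes subunit 1, which carries a PCI domain, the fold by which most signalosome subunits assemble. It too fell at 60 h in csn51 and csn53. Its 60 h values were -0.50, -0.45, -0.39 and -0.37 in csn51 and -0.44, -0.46, -0.65, -0.73 and -0.35 in csn53. In csn4null they were -0.14, -0.37 and -0.20, and in csn5null 0.06, 0.01, 0.25, 0.14 and -0.37. Arrays of csn51 and csn53 overlapped only 1 array of csn4null and 1 of csn5null. The csn5null array was replicate 5, which stood apart from its group over all features.

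The fitted CSN1b values at 60 h were -0.43 ± 0.08 in csn51 and -0.52 ± 0.07 in csn53 (limma adjusted p = 3.0e-05 and 1.2e-07), and they were kept in every alternative fit and without any single array. In csn4null CSN1b was at -0.24 ± 0.09 (adjusted p = 0.0663) and in csn5null at 0.02 ± 0.07 (adjusted p = 0.991). CSN1a, the related gene for the same subunit, was not analysed here, and whether the CSN1b entry also detects it was not tested.

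At 72 h CSN1b had -0.02, 0.40, 0.29 and 0.54 in csn4null, the one group in which it was called higher (0.30 ± 0.08, adjusted p = 0.00397). It did not pass there without replicate 4 (0.22, adjusted p = 0.0919) or in a fit of those arrays alone (adjusted p = 0.0782). At 96 h all 5 csn51 arrays were below 0, at -0.10, -0.14, -0.30, -0.37 and -0.25. CSN1b was lower in that group by the fit of all arrays (-0.23 ± 0.07, adjusted p = 0.00663) but not after the arrays were scaled to one median absolute value (-0.17, adjusted p = 0.0576) or in a fit of those arrays alone (adjusted p = 0.0528).

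CSN5 itself, in the alleles csn51 and csn53, had low values at 60 h. They were -0.66, -0.42, -0.38 and -0.42 in csn51 and -0.49, -0.46, -0.48, -0.63 and -0.41 in csn53, all below 0. The csn4null arrays of that age, at -0.38, -0.45 and -0.22, overlapped both groups. The fit of all arrays gave -0.47 ± 0.33 in csn51 and -0.53 ± 0.30 in csn53, neither past the test (adjusted p = 0.252 and 0.133). The residual SD of CSN5 in that fit, 0.68, was higher than that of 96.1% of features. Without the 3 csn5null arrays that stood apart both values passed the test (csn51 -0.47 ± 0.17, adjusted p = 0.0229, and csn53 -0.51 ± 0.16, adjusted p = 0.00552).

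At the later ages CSN5 in csn51 and csn53 was not called in the fit of all arrays, where its standard errors were 0.30 to 0.33. In csn51 at 72 h it lay between -0.20 and -0.01 and at 96 h between -0.43 and -0.14. In csn53 it had 0.0009, 0.50, 0.27 and 0.23 at 72 h, and lay between -0.28 and -0.08 at 96 h. In csn4null CSN5 lay between -0.27 and -0.14 at 96 h and around 0 at 72 h, and it was not called at any age.

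**Figure D4:**
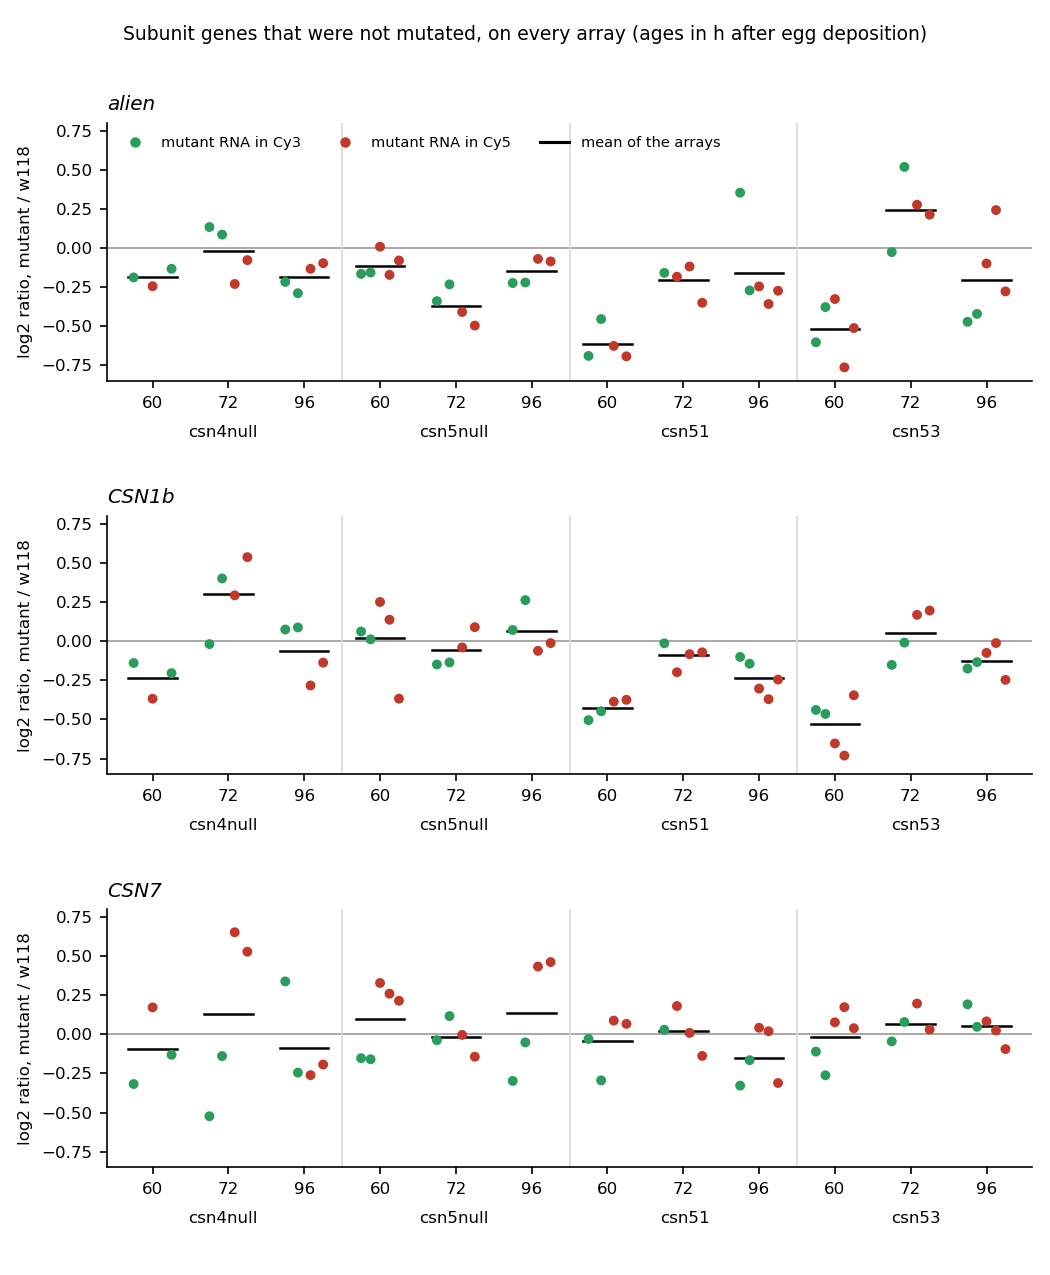
Log2 ratios (mutant / w118) of alien (mean of its entries), CSN1b and CSN7 on each array, by genotype and age in h, with mutant RNA in Cy3 (green) or Cy5 (red) and the group mean as a bar. At 60 h every csn51 and csn53 array lies at -0.33 or below for alien and at -0.35 or below for CSN1b, while CSN7 stays around 0 with many Cy5 arrays above Cy3 arrays.

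The low values of alien and CSN1b at 60 h differed between the CSN5 mutants, and this difference was tested itself. At 60 h alien was higher in csn5null (-0.11) than in csn51 and csn53 averaged, by 0.45 ± 0.10 (limma adjusted p = 0.000381). CSN1b was higher in csn5null (0.02) than in that mean, by 0.50 ± 0.09 (adjusted p = 2.1e-05). Both calls were kept in every alternative fit and without any single array. Without the 3 csn5null arrays that stood apart the differences were 0.44 ± 0.11 for alien and 0.59 ± 0.09 for CSN1b. Apart from CSN5, the mutated gene, which passed in the other direction, alien and CSN1b passed this comparison and CSN4 and CSN7 did not. It was passed by 43.7% of all features.

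The w118 RNA had labels of its own, and one of them was shared at 60 h by all 5 csn5null arrays, 3 csn51 arrays, 1 csn53 array and 1 csn4null array. No source used here states whether arrays with one label shared an RNA extract. Within that label alien lay between -0.69 and -0.45 in csn51 and at -0.60 in csn53, against -0.17 to 0.01 in csn5null. CSN1b lay between -0.50 and -0.39 in csn51 and at -0.44 in csn53, against -0.37 to 0.25 in csn5null. The arrays of csn51 and csn53 were thus below every csn5null array for both genes within this label. With arrays of one w118 label as a random block the differences were 0.45 and 0.50 (adjusted p = 0.000391 and 2.2e-05).

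Between csn51 and csn53, 0 of the 5 subunit genes differed at 60 h by limma, where 0.194% of all features did, and 0 of the 5 at an unadjusted p of 0.05. The difference csn51 minus csn53 was -0.10 for alien, with a 95% interval of -0.35 to 0.15, and 0.10 for CSN1b, with a 95% interval of -0.12 to 0.31. At 72 h alien was lower in csn51 than in csn53, with a difference of -0.44 ± 0.13 (adjusted p = 0.0436), the 1 of 5 subunit genes past a comparison that 3.64% of features passed. That call was lost without any one of the arrays numbered 2, 3 and 4 of csn53 or of any one array of csn51 (-0.47 to -0.36, adjusted p between 0.0528 and 0.158). At 96 h 0 of 5 differed by limma, also at an unadjusted p of 0.05, against 4.08% of features.

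Other differences between mutants came at 72 and 96 h. At 72 h the difference of csn5null from the average of csn51 and csn53 was -0.39 ± 0.11 for alien (adjusted p = 0.0065), and -0.38 ± 0.13 without the 3 csn5null arrays (adjusted p = 0.0177), the opposite of its order at 60 h. Apart from CSN5, the mutated gene, only alien of the subunit genes passed that comparison, against 31.5% of features. At 96 h only CSN1b did, again apart from CSN5, against 30.5% of features. For CSN5 the differences from this average were -3.95, -2.96 and -1.76 at the 3 ages, and -3.84, -3.84 and -2.43 without the 3 arrays. CSN1b was higher there in csn5null (0.06) than in csn51 and csn53 averaged, by 0.24 ± 0.10 (adjusted p = 0.0487), a call lost without any one of replicates 1, 2 and 4 of csn5null, 3, 4 and 5 of csn51 or 1, 2 and 5 of csn53 (0.18 to 0.27, adjusted p up to 0.223). Without the 3 arrays that stood apart it was 0.29 ± 0.10 (adjusted p = 0.02).

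Between the 2 nulls, csn4null and csn5null, the mutated genes CSN4 and CSN5 differed at each age. CSN5 was higher in csn4null than in csn5null by 4.17 ± 0.48, 2.94 ± 0.47 and 1.81 ± 0.47 at the 3 ages, and the last call was lost without csn5null replicate 1 or 2 (1.25 and 1.51, adjusted p = 0.137 and 0.0927). Without the 3 csn5null arrays that stood apart these differences of CSN5 were 4.00, 3.79 and 2.46 (adjusted p at most 1.04e-08). At 60 and 96 h none of alien, CSN1b and CSN7 differed, where 9.92% and 4.91% of features did. At 72 h CSN1b alone of these differed, where 10.6% of features did. It was higher in csn4null (0.30) than in csn5null (-0.06) by 0.36 ± 0.11 (adjusted p = 0.0332). This CSN1b call was lost without csn4null replicate 2, 3 or 4 or csn5null replicate 1 or 2 (0.28 to 0.36, adjusted p between 0.0633 and 0.158). At 60 h CSN1b was at -0.24 in csn4null and 0.02 in csn5null, a difference of -0.26 ± 0.12 (adjusted p = 0.151) that passed once csn5null replicate 5 was left out (-0.35, adjusted p = 0.0199).

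At 96 h the ratio of alien in csn51 and csn53, and that of CSN1b in csn53, lay nearer 0 than at 60 h. In csn53 the course was not steady. There alien was at -0.51, 0.25 and -0.20 and CSN1b at -0.52, 0.05 and -0.13 at 60, 72 and 96 h. In csn51 alien was at -0.61, -0.20 and -0.16. alien was higher at 96 h than at 60 h by 0.46 ± 0.12 in csn51 (adjusted p = 0.00288) and by 0.31 ± 0.12 in csn53 (adjusted p = 0.0363). The csn51 call ended when these csn51 arrays were fitted alone (0.46, adjusted p = 0.0536). The csn51 difference was 0.26 by clone SD08021 alone, 0.65 by LD10463 alone and 0.32 without 96 h replicate 1, still called in each. CSN1b was higher at 96 h by 0.40 ± 0.10 in csn53 (adjusted p = 0.00227) and had a difference of 0.20 ± 0.11 in csn51 (adjusted p = 0.15). These were 1 of 5 subunit genes in csn51, against 37.8% of features, and 2 of 5 in csn53, against 31.4%. The call of alien in csn53 was lost without 60 h replicate 1, 4 or 5 or 96 h replicate 3 or 4, at 0.20 to 0.31 (adjusted p between 0.0505 and 0.205). In csn4null 0 of 5 changed between these ages by limma, against 12.4% of features and with 0 of 5 at an unadjusted p of 0.05, and in csn5null 1 of 5, CSN5, against 7.37%.

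**Figure D5:**
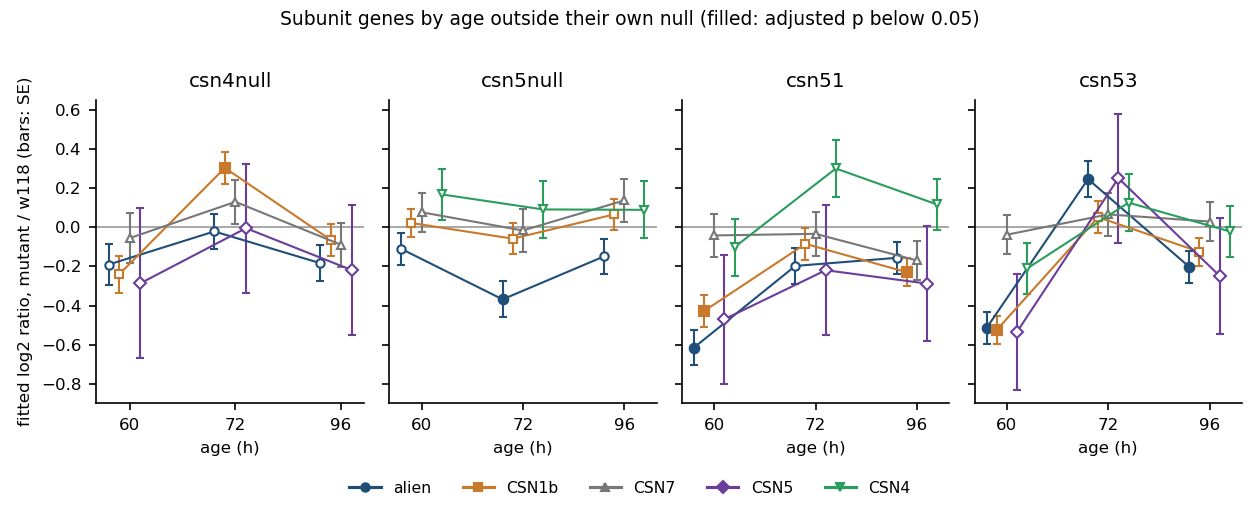
Fitted log2 ratios (mutant / w118, bars SE) of the subunit genes at 60, 72 and 96 h in each mutant, leaving out CSN4 in csn4null and CSN5 in csn5null, with filled symbols for an adjusted p below 0.05. alien and CSN1b lie in csn51 and csn53 between -0.61 and -0.43 at 60 h, between -0.20 and 0.25 at 72 h and between -0.23 and -0.13 at 96 h. CSN5 has the widest bars.

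CSN7, another PCI subunit gene, was not called in any of the 12 groups. Its fitted values lay between -0.17 (csn51, 96 h) and 0.14 (csn5null, 96 h), and their 95% intervals together ran from -0.37 to 0.36. Some of its groups split by dye. In csn4null at 72 h the arrays with mutant RNA in Cy3 were at -0.52 and -0.14 and those in Cy5 at 0.65 and 0.53. In csn5null at 60 h the Cy3 arrays were at -0.15 and -0.16 and the Cy5 arrays at 0.33, 0.26 and 0.21. Over all arrays the dye coefficient of CSN7 was 0.22 ± 0.06 (Cy5 minus Cy3, adjusted p = 0.0471), where 3.57% of features had a called one. The csn4null group at 72 h was called higher without its replicate 1, a Cy3 array (0.32 ± 0.12, adjusted p = 0.0485).

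CSN4, a PCI subunit, was not called in csn5null, csn51 or csn53 at any age. Its fitted values there lay between -0.21 (csn53, 60 h) and 0.30 (csn51, 72 h). In csn51 at 72 h its 4 values of 0.14, 0.22, 0.34 and 0.42 were all above 0, and in csn53 at 60 h its 5 values lay closely between -0.25 and -0.19. Both groups passed the test when fitted on their own arrays alone (adjusted p = 0.0447 and 0.00523), and not in the fit of all arrays (adjusted p = 0.114 and 0.184), whose spread for CSN4 includes the csn4null arrays. At 60 h CSN4 was between 0.08 and 0.29 on the 5 csn5null arrays, above every csn53 array. The difference of csn5null from csn51 and csn53 averaged was at that age 0.32 ± 0.16 (adjusted p = 0.106).

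Across groups, alien and CSN5 had the most similar ratios among the members. Over the 9 groups other than csn5null their fitted values correlated at r = 0.95, a higher r with alien than that of 99.8% of named genes. CSN1b and CSN5 had r = 0.84 over these 9 groups, and alien and CSN1b r = 0.75 over all 12. CSN4 and CSN7 had r = 0.12 over the 9 groups other than csn4null. These are descriptions of a few points from the same arrays, without a test. The pairs rest on unlike sets of groups, which limits a ranking of their r values.

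For each member, the genes with the most similar 12 group values were sought among 4391 named genes. The members themselves were left out of this search. For alien they were me31B, an RNA helicase gene of cytoplasmic RNA granules (r = 0.94 over the 12 groups and 0.83 over the arrays), CG5746 (0.93 and 0.85) and CG6479 (0.93 and 0.69). me31B fell in csn51 (-0.54) and csn53 (-0.55) at 60 h and rose in csn53 at 72 h (0.34). For CSN1b they were the proteasome regulatory particle gene Rpn1 (0.96 and 0.55), the Integrator subunit gene IntS9 (0.95 and 0.78) and the proteasome ATPase gene Rpt5 (0.95 and 0.80). Rpt5 fell at 60 h by 0.68 ± 0.07 in csn51 and by 0.66 ± 0.07 in csn53 (limma adjusted p = 2.2e-09 and 1.6e-10).

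For CSN4 the likest genes were CG7800 (r = 0.98 over the groups and 0.94 over the arrays), its neighbour CG8726 (0.96 and 0.91) and Arc1 (0.94 and 0.87), and csn4null sets the order of these values. CG7800, which lies on another chromosome arm than CSN4, had fitted values of -2.32 ± 0.15, -2.01 ± 0.13 and -1.72 ± 0.13 in csn4null at 60, 72 and 96 h. Its values in the other mutants lay at -0.40 or above. For CSN5, where csn5null sets the order, they were udd, REPTOR and Lsm12a (r = 0.88 each over the groups and 0.68, 0.58 and 0.47 over the arrays). For CSN7 they were DCTN2-p50, Gga and Cph (r = 0.91, 0.88 and 0.87 over the groups and 0.29, 0.38 and 0.33 over the arrays). The values of CSN7 over the arrays were thus followed least closely.

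Of the proteasome lid, 3 of 9 listed genes were measured, Rpn5, Rpn6 and Rpn7. At 60 h Rpn5 and Rpn7 were both lower in csn4null (-0.27 and -0.26), csn51 (-0.46 and -0.44) and csn53 (-0.35 and -0.37), where 8.08%, 22.9% and 24.9% of all features were lower, and neither was called in csn5null (-0.03 and 0.02). At 72 h both were higher in csn4null (0.39 and 0.23, with 12.6% of all features), and Rpn5 was higher in csn53 (0.38, with 15.8%). At 96 h both were lower in csn4null (-0.29 and -0.35) and csn51 (-0.31 and -0.45), with 16.3% and 28.1% of all features. Rpn7 was lower too in csn51 at 72 h (-0.36, with 16.9%) and in csn53 at 96 h (-0.25, with 19.5%). Rpn6 had 0.10, -0.15, -4.72 and -0.27 in csn5null at 72 h, where replicate 3, which stood apart over all features, was far below the others. It was called lower in that group with this array (-1.26 ± 0.32, adjusted p = 0.0043) and not without it (-0.10 ± 0.09, adjusted p = 0.453). With all arrays Rpn6 was called in no other group, at standard errors of 0.28 to 0.37. Without the 3 csn5null arrays that stood apart it was lower at 60 h in csn4null (-0.22), csn51 (-0.27) and csn53 (-0.31). Of all features 12.4%, 25.5% and 27.2% were then lower there. It was also lower at 96 h in csn4null (-0.26, with 18.7%) and higher in csn53 at 72 h (0.34, with 19.3%). In csn5null 1 of the 3 lid genes was then lower at 96 h, where 12.9% of all features were, against 0 with all arrays. At 60 and 72 h 0 were then called in csn5null. The median of these 3 genes lay between -0.44 (csn51, 60 h) and 0.34 (csn53, 72 h).

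Of 9 genes of Nedd8 conjugation and removal outside the complex, 2 were measured. Uba3, a subunit of the Nedd8-activating enzyme, was lower at 60 h in csn4null (-0.30 ± 0.11, adjusted p = 0.0428), csn51 (-0.24 ± 0.09, adjusted p = 0.0263) and csn53 (-0.30 ± 0.08, adjusted p = 0.00218). In csn5null it had 0.22 ± 0.08 (limma adjusted p = 0.0904). Without the 3 arrays that stood apart it had 0.28 ± 0.09 and passed the test (adjusted p = 0.0167), where 8.79% of all features were higher. Cand1, which binds cullins that lack Nedd8, was lower in csn51 (-0.30 and -0.38) and csn53 (-0.36 and -0.31) at 60 and 96 h and was not called in the nulls. Of all features 8.08%, 22.9% and 24.9% were lower at 60 h in csn4null, csn51 and csn53. At 96 h 28.1% were lower in csn51 and 19.5% in csn53. With all arrays neither Uba3 nor Cand1 was called higher in any group.

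Of 28 listed cullins, RING subunits and cullin adaptors 16 were measured, and they moved in both directions. In csn4null 0 rose and 1 fell at 60 h (9.77% and 8.08%), 2 rose and 0 fell at 72 h (12.6% and 12.4%), and 3 rose and 3 fell at 96 h (15.1% and 16.3%), where the percentages are the shares of all features that did so. In csn5null 2 rose and 0 fell at 60 h (4.54% and 3.39%), 0 rose and 2 fell at 72 h (8.32% and 9.44%), and 4 rose and 3 fell at 96 h (9.47% and 7.79%). In csn51 5 rose and 3 fell at 60 h (24.1% and 22.9%), 1 rose and 5 fell at 72 h (17.6% and 16.9%), and 5 rose and 5 fell at 96 h (27% and 28.1%). In csn53 6 rose and 4 fell at 60 h (25.3% and 24.9%), 3 rose and 1 fell at 72 h (15.8% and 14.2%), and 5 rose and 3 fell at 96 h (21% and 19.5%). Their median lay between -0.09 and 0.11 in the 12 groups. Keap1, an adaptor of Cul3 ligases in the oxidative stress response, was called higher in 9 groups, at most by 1.22 ± 0.15 in csn4null at 96 h, and by 1.41 ± 0.15 in csn5null at 96 h without the 3 csn5null arrays. SkpA, the adaptor of Cul1 ligases, was called in 7 groups and lower in each, at most in csn51 at 96 h (-0.54 ± 0.08). When the 3 csn5null arrays were left out, 2, 3 and 4 of the 16 genes rose and 0, 0 and 3 fell in csn5null at the 3 ages. Of all features 8.79%, 8.76% and 14.4% then rose and 8.41%, 12% and 12.9% fell. SkpA was then no longer called in csn5null at 72 h (-0.26, limma adjusted p = 0.0599).

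Of 16 listed eIF3 genes 9 were measured. At 96 h 6 rose and 0 fell in each of csn4null, csn51 and csn53, with medians of 0.24, 0.35 and 0.23, where 15.1%, 27% and 21% of all features rose. In csn5null 1 rose and 0 fell, with a median of 0.12, where 9.47% of features rose. At 72 h csn51 had 6 that rose (17.6% of all features) and 1 that fell (16.9%), csn53 4 (15.8%) and 1 (14.2%), csn4null 1 (12.6%) and 1 (12.4%), and csn5null 0 (8.32%) and 3 (9.44%). At 60 h csn51 had 3 that rose (24.1%) and 1 that fell (22.9%), csn53 0 (25.3%) and 3 (24.9%), csn4null 0 (9.77%) and 0 (8.08%), and csn5null 0 (4.54%) and 0 (3.39%). When the 3 csn5null arrays that stood apart were left out, 0, 0 and 3 rose and 1, 5 and 0 fell in csn5null at the 3 ages. Of all features 8.79%, 8.76% and 14.4% then rose and 8.41%, 12% and 12.9% fell. With all arrays and at an unadjusted p of 0.05 the 60 h counts by limma were 1 higher and 2 lower in csn4null, and 0 and 4 in csn5null. The share of all features at an unadjusted p was not counted. eIF3k was called higher in csn4null at 72 and 96 h (0.55 and 0.61), in csn51 at all ages (0.30, 0.60 and 0.57) and in csn53 at 72 and 96 h (0.40 and 0.39), and lower in csn5null at 72 h (-0.32), where it was not called without these 3 arrays (-0.11, adjusted p = 0.571).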

How the data were processed

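RNA of mutant and of w118 larvae was hybridised together to 2-colour arrays after amino-allyl labelling, per the labels' protocols. The authors deposited one table of log ratios with 6621 entries, taken here as log2 ratios, whose background correction, normalization and filters are not given in the sources used here. Each array had values for 5805 to 6593 entries. Array medians lay between -0.0271 and 0.0161 and array SDs between 0.347 and 0.948. The largest absolute value was 10.4, so base 10 was set aside, while a natural logarithm would change all values by the same factor and no test. Signal over background was not used, since the table holds ratios alone.

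Entries were named through the platform annotation (5072 with 1 symbol, 176 with several, 1373 with none), of which 4993 matched RefSeq genes (assembly Release 6 plus ISO1 MT), which were used for names and neighbours only. The 32 controls and 28 entries without values were left out, and entries of one gene were averaged (324 genes). limma 3.58.1 in R 4.3.3 was fitted to all 51 arrays with 12 group coefficients and 1 dye coefficient, with lmFit and eBayes (prior df 3.34, prior SD 0.235). The adjustment of p-values was that of Benjamini and Hochberg, within each comparison and over all its features, at a threshold of 0.05. A feature was tested where each group had at least 2 arrays with a value. The fit was checked on simulated data. Python 3.11.15 with matplotlib 3.10.9 made the figures. In all, 60 group values and 65 differences of the 5 genes were tested.

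The members, gene lists and tests were chosen with earlier results of these data known. Named besides the members were the 3 genes with the highest correlation of group values with each member, its nearest measured neighbours, and up to 3 genes per list with the most groups called, and examples were taken from these. The alternatives left out the dye term, fitted the compared groups' arrays by themselves without that term, or used arrays centred on their median, arrays scaled to one median absolute value, features with a value on all arrays, each entry on its own, array weights, a replicate block, and each array left out in turn. Leaving out csn5null arrays that stood apart, for the members and the lists, and the w118 label as a block, were chosen after seeing the data. Pairing by replicate number was checked by the correlation of residuals. Of 18 pairs of genotypes 0 had every r above 0.1, and the main fit did not pair arrays. Many arrays of one age and number also carried the same w118 label. These correlations cannot decide whether such arrays shared RNA, since each pair of genotypes gave few of them.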

Additional observations from a re-analysis of the deposited data

Results flagged for a closer look

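Of 77 sets of arrays of one group, for the 5 genes and for each alien entry, 9 held an array far from the others by Dixon's test, which chance gives in about 1 in 20 sets. CSN4 was at -3.05 on csn4null 72 h replicate 3, and CSN5 at -0.66 on csn51 60 h replicate 1 and at -0.32 on csn5null 72 h replicate 3. CSN7 was at 0.34 on csn4null 96 h replicate 1, a Cy3 array above 3 others that were below 0. alien was at 0.35 on csn51 96 h replicate 1, with clone LD10463 at 0.92. Clone SD08021 of alien was at 0.11 on csn53 72 h replicate 1, at 0.14 on csn5null 60 h replicate 3 and at -0.33 on csn5null 96 h replicate 1. Of these arrays, csn5null 72 h replicate 3 also stood apart from its group over all features.

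Of the 65 differences tested between mutants or ages, 19 passed the test. The mutated genes made up 10 of them. CSN4 in csn4null against csn5null differed by -2.56, -2.56 and -2.28 at 60, 72 and 96 h, and CSN5 by 4.17, 2.94 and 1.81. CSN5 in csn5null against csn51 and csn53 averaged differed by -3.95, -2.96 and -1.76 at these ages, and CSN5 in csn5null by 2.42 between 96 and 60 h.

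The other 9 concerned alien and CSN1b. Against csn51 and csn53 averaged, csn5null differed in alien by 0.45 at 60 h and -0.39 at 72 h and in CSN1b by 0.50 at 60 h and 0.24 at 96 h. CSN1b differed by 0.36 between csn4null and csn5null at 72 h, and alien by -0.44 between csn51 and csn53 at 72 h. Between 96 and 60 h alien differed by 0.46 in csn51 and 0.31 in csn53, and CSN1b by 0.40 in csn53.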

How the results depend on the processing

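No value of a subunit gene that passed the test changed its sign in any alternative. A fit of only the arrays compared, with no dye term, ended the calls of CSN1b in csn4null at 72 h (0.30) and csn51 at 96 h (-0.23), of alien in csn5null at 72 h (-0.37), csn53 at 72 h (0.25) and csn53 at 96 h (-0.20, -0.205 before rounding), and of CSN5 in csn5null at 72 h (-2.94) and 96 h (-2.03). It also ended those of CSN1b (0.36) and CSN5 (2.94) between csn4null and csn5null at 72 h, CSN5 between them at 96 h (1.81), alien between csn51 and csn53 at 72 h (-0.45), CSN1b in csn5null against csn51 and csn53 averaged at 96 h (0.25), and 96 h minus 60 h of CSN5 in csn5null (2.39) and of alien in csn51 (0.46) and csn53 (0.31). It called CSN5 lower in csn51 (-0.47) and csn53 (-0.50) at 60 h and in csn51 (-0.25) and csn53 (-0.21) at 96 h, with 0.28 for 96 h minus 60 h in csn53. It called CSN4 in csn51 at 72 h (0.28), in csn53 at 60 h (-0.22) and in csn5null against csn51 and csn53 averaged at 60 h (0.32).

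Scaling the arrays called CSN1b in csn4null (-0.25) and between csn4null and csn5null (-0.32) at 60 h, alien between these at 72 h (0.38) and CSN4 in csn5null against csn51 and csn53 averaged at 60 h (0.40). It ended the calls of CSN1b in csn51 (-0.17) and in csn5null against their average (0.20) at 96 h, of CSN5 between csn4null and csn5null at 96 h (1.86) and of alien for 96 h minus 60 h in csn53 (0.25). Array weights called CSN5 in csn51 (-0.45) and csn53 (-0.46) at 60 h, CSN4 in csn53 at 60 h (-0.23) and in csn5null against that average (0.34), alien in csn5null at 60 h (-0.13), csn51 at 72 h (-0.18) and csn51 at 96 h (-0.26), and CSN1b in csn53 at 96 h (-0.16) and between csn4null and csn5null at 60 h (-0.27). They ended the call of alien for 96 h minus 60 h in csn53 (0.12). Centring the arrays ended those of alien between csn51 and csn53 at 72 h (-0.43) and CSN1b in csn5null against that average at 96 h (0.24), as did fitting entries on their own for CSN1b (0.24).

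Of the alien entries, SD08021 alone was called in csn4null at 60 h (-0.25) and 96 h (-0.29) and in csn51 at 96 h (-0.31). LD10463 alone was not called in csn53 at 72 h (0.18) and 96 h (-0.19), between csn51 and csn53 at 72 h (-0.44) or for 96 h minus 60 h in csn53 (0.33). Without the 2 later csn5null arrays that stood apart, CSN5 was called in csn51 (-0.47) and csn53 (-0.51) at 60 h. Without all 3 it was too (-0.47 and -0.51), as was CSN1b in csn4null (-0.24) and between csn4null and csn5null (-0.35) at 60 h.

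Leaving out 1 array at a time ended or made a call for CSN1b in csn4null at 72 h (0.22 to 0.42), CSN7 there (-0.01, -0.0125 before rounding, to 0.32), and alien in csn51 at 96 h (-0.29 to -0.11), csn53 at 72 h (0.15 to 0.34) and csn53 at 96 h (-0.32 to -0.13). It did so for CSN1b between csn4null and csn5null at 60 h (-0.35 to -0.20) and 72 h (0.28 to 0.48) and in csn5null against that average at 96 h (0.18 to 0.28). The others were alien between csn51 and csn53 at 72 h (-0.54 to -0.36), CSN5 between csn4null and csn5null at 96 h (1.25 to 2.44), and 96 h minus 60 h of CSN4 in csn4null (-0.11 to 0.58) and alien in csn53 (0.20 to 0.38). The cause of these changes was not tested, beyond the smaller number of arrays in some fits.

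Same-numbered arrays had residual correlations between -0.555 and 0.613 over 71 pairs. With the replicate block (correlation 0.00449) alien in csn51 at 60 h was at -0.61 and CSN1b at -0.43, and no call of a subunit gene changed. The w118 label as a block (correlation 0.0148) changed none either.

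The number of all features called moved by over 1.5 times in several fits. With the compared arrays only it was 78, against 1047 in the fit of all arrays, in csn4null at 60 h, 1 against 1099 in csn5null at 72 h, 39 against 1068 in csn5null at 96 h and 959 against 1854 in csn53 at 72 h. For csn4null minus csn5null it was 278 against 655 at 72 h and 149 against 304 at 96 h, for csn51 minus csn53 at 72 h 21 against 225, and for 96 h minus 60 h in csn5null 229 against 456. Scaling gave 6 against 12 and 39 against 242 for csn51 minus csn53 at 60 and 96 h and 1377 against 2244 for 96 h minus 60 h in csn51. Array weights gave more, namely 1648 against 1047 in csn4null at 60 h, 2546, 2000 and 1763 against 491, 1099 and 1068 in csn5null, and 3773 against 2506 in csn53 at 96 h. They gave 2283 against 582 and 607 against 304 for csn4null minus csn5null at 60 and 96 h, 42, 977 and 603 against 12, 225 and 242 for csn51 minus csn53, and 4207 against 2705 for csn5null at 60 h against csn51 and csn53 averaged. For 96 h minus 60 h they gave 1198 against 730 in csn4null, 2078 against 456 in csn5null and 3383 against 1940 in csn53. Without any 1 array the lowest or highest counts were 232 in csn4null at 60 h, 300 and 886 in csn5null at 60 h, 582 in csn5null at 96 h, 151 and 1375 for csn4null minus csn5null at 60 h, 182 for it at 96 h, 7 for csn51 minus csn53 at 60 h and 62 and 367 for it at 72 h, 401 for 96 h minus 60 h in csn4null, and 221 and 953 for it in csn5null. In csn5null 1064, 1287 and 1688 were called without its 3 arrays that stood apart. The percentages set beside the subunit counts move with these numbers. The table holds ratios without signal, so the limit that dim spots set on any value is unknown.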
